A study of Caenorhabditis elegans with 2 samples.

Results

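The nuclear hormone receptor genes of Caenorhabditis elegans were examined for binding of UNC-86, a neuronal transcription factor with a POU domain and a homeodomain. The set was every protein-coding gene of the WBcel235 annotation whose symbol starts with nhr-, which gave 269 of 19973 protein-coding genes. Of these, 167 lie on chromosome V and 102 on the other chromosomes (33 on IV, 23 on I, 23 on X, 15 on II and 8 on III). RefSeq product names describe 268 of the 269 as a nuclear receptor or a protein with its ligand-binding domain. The exception is nhr-246 on chromosome V, which is named there as a kinase-like protein and was kept because the symbol was the criterion.

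Binding was measured by chromatin immunoprecipitation and sequencing (ChIP-seq). The sample descriptions name an antibody to GFP, while the antibody field of the labels names unc-86, and GFP was taken here as the reagent. The samples were whole hermaphrodites at the L1 larval stage. They had been hatched from bleached embryos and starved, and were taken 6 hours after this synchronization. Strain OP476 carries unc-119(tm4063) on chromosome III and the transgene wgIs476, which expresses UNC-86 with a GFP tag at its C terminus (the labels give the tag as eGFP and as GFP-FLAG). If the antibody field names the reagent itself, untagged UNC-86 from the native gene could also have been pulled down. There were 2 biological replicates of this 1 group and no second condition, and all animals came from this transgenic strain. Whole animals were used, so the cells in which a site was bound are not known. The data were lists of peaks: an optimal list of 2987 peaks that passed the irreproducible discovery rate (IDR) procedure, a pooled list of 20768 peaks that also holds background, and relaxed lists of 29587 peaks for replicate 1 and 25172 for replicate 2. Each peak carries the authors' signal value, which orders peaks within a list. How that value was scaled is not stated in the labels, and signals from different lists are not on a common scale. The optimal peaks are the 2987 strongest of the pooled list, so a rank given below holds for both. Peak lists hold no read counts and the depth of the libraries is unknown.

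Nuclear hormone receptors are transcription factors that bind DNA through a zinc finger domain and, in many cases, are regulated by small lipophilic ligands such as steroids and fatty acids bound at a separate domain. C. elegans has far more of these genes than insects or mammals. A small number belong to subfamilies shared with other animals, and most descend from an HNF4-like ancestor that multiplied in nematodes, with many copies in arrays on chromosome V. Well-studied members act in fat metabolism, responses to diet and toxins, moulting and developmental timing. UNC-86 is known for specifying neuron classes such as the touch receptor neurons, some of its sites being bound together with the LIM homeodomain protein MEC-3.

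Few receptor genes on chromosome V had an UNC-86 peak at the promoter, and those on the other chromosomes had one about as often as other genes there. A gene was counted when a summit fell between 1500 bp upstream and 500 bp downstream of any annotated 5' end of the gene. With the optimal list, 3 of 167 receptor genes on chromosome V had a promoter peak (1.80%, exact 95% interval 0.372 to 5.16), against 14 of 102 on the other chromosomes (13.7%, 7.71 to 21.96). Among all protein-coding genes, members included, the share was 8.45% on chromosome V and 14.6% on the other chromosomes. Over all chromosomes it was 17 of 269 receptor genes (6.32%, 3.72 to 9.93) and 13.1% of protein-coding genes. Intervals cover the counting of genes only. Neighbouring genes share promoters, so they are not independent, and no p was computed.

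The gap between chromosome V and the rest was larger than the spread between replicates. Taking the 2987 strongest peaks of replicate 1 and of replicate 2 gave 5 and 3 genes on chromosome V (2.40% ± 0.847, SD, n = 2) and 12 and 14 on the other chromosomes (12.7% ± 1.39). Chromosome V as a whole gave 8.31% ± 0.0566 in the same step, so its receptor genes were below all its protein-coding genes in both replicates. Replicate 1 and replicate 2 each gave 17 receptor genes, of which 15 were the same. The genes in which they differed were nhr-15 and nhr-55, present on chromosome V in replicate 1 only, and nhr-14 and nhr-280, present in replicate 2 only. Replicate 2 gave the same 17 genes as the optimal list.

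Chromosome X stood at the other end of the range, a chromosome singled out after its values were seen. There 7 of 23 receptor genes had an optimal promoter peak (30.4%, 13.2 to 52.9), against 11.5% of all protein-coding genes of the X, and the replicates gave 6 and 7. On chromosomes I to IV together 7 of 79 did (8.86%, 3.64 to 17.4), against 15.3% of protein-coding genes. These were 2 of 23 on I, 1 of 15 on II, 1 of 8 on III and 3 of 33 on IV. The share of receptor genes outside chromosome V therefore joined an X with a high share to autosomes with a low share.

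**Figure D1:**
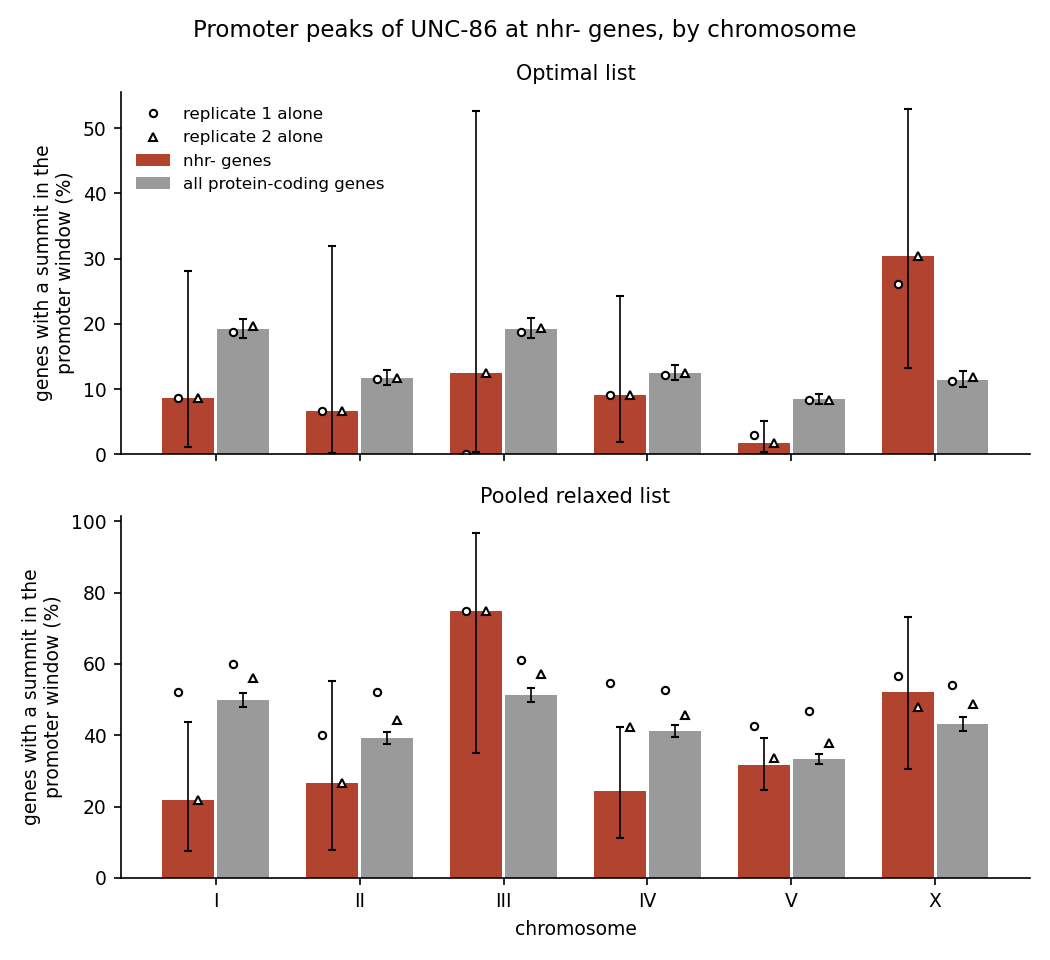
Share of genes, in percent, with a peak summit in the promoter window for each chromosome, for nhr- genes (red) and all protein-coding genes (grey), in the optimal list (top) and the pooled relaxed list (bottom). Error bars are exact 95% intervals, and circles and triangles are replicates 1 and 2 alone (their 2987 strongest peaks above, their whole relaxed lists below). In the optimal list nhr- genes stand at 1.80% on V and 30.4% on X, against 8.45% and 11.5% of all protein-coding genes.

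The 3 receptor genes bound on chromosome V all shared their peak with a neighbouring gene. nhr-47 (WBGene00003637, V from 5505253 to 5509956, plus strand) had the strongest peak of the family, with a signal of 456 and rank 182, and the replicates gave 210.0 (rank 174) and 241 (rank 203). Its summit lay 9 bp upstream of nhr-47, in exon sequence of the RNA gene C24G6.10, and 387 bp upstream of dnj-19, which encodes a DnaJ-type chaperone. nhr-142 (WBGene00018430, V from 5785957 to 5790553, minus strand) had a signal of 275 (rank 498), with 130.5 in replicate 1 and 130.9 in replicate 2. Here the summit lay 515 bp upstream of nhr-142 and closer to F44E7.9, 162 bp from that gene's 5' end. nhr-184 (WBGene00018415, V from 2212871 to 2214478, minus strand) had a signal of 74.4 near the end of the list (rank 2674), with 34.3 and 42.0 in the replicates, 452 bp upstream of nhr-184 and 722 bp upstream of nstp-8. These 3 genes lay in the left part of chromosome V when it is cut into 3 equal lengths, where 3 of 78 receptor genes were bound (3.85%, 0.800 to 10.8), against 7.14% of all protein-coding genes. In replicate 1 the left part gave 6.41% of receptor genes and 7.46% of protein-coding genes, so the difference there was small in that replicate. None of the 41 in the middle part or the 48 in the right part had an optimal promoter peak, which allows shares of up to 8.60% and 7.40%, against 11.7% and 6.15% of all protein-coding genes there. The 151 bp around each summit are given because these sequences are the bound receptor promoters of chromosome V. They are read from WBcel235, 5' to 3' on the strand of the receptor gene, with GAGAGA (or its reverse complement TCTCTC) in capitals. The regions are chrV:5505169-5505319 for nhr-47, chrV:5790993-5791143 for nhr-142 and chrV:2214855-2215005 for nhr-184.
nhr-47: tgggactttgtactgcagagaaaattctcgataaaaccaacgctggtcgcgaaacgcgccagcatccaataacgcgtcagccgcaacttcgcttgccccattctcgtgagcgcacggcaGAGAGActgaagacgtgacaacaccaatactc
nhr-142: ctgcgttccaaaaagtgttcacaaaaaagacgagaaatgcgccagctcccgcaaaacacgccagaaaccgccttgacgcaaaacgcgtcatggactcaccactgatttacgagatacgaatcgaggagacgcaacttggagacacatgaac
nhr-184: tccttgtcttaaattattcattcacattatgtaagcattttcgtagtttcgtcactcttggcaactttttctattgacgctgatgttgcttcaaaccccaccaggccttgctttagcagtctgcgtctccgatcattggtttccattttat
GAGAGA occurred in the first of these only.

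On the X the bound genes were nhr-48, nhr-1, nhr-40, nhr-3, nhr-255, nhr-32 and nhr-14, and 6 of the 7 had no other protein-coding gene in reach of the summit. nhr-48 (WBGene00003638, 15708213 to 15716875) belongs to the receptor group of DAF-12 and NHR-8, and its peak 569 bp upstream had a signal of 309 (rank 401), with 127 and 183 in the replicates. nhr-1 (WBGene00003600, 17514063 to 17528197) carried a pair of peaks, each at a different annotated 5' end. The one 321 bp upstream of the first 5' end had a signal of 308 (rank 402), with 123 and 181 in the replicates. The other, in an intron 40 bp upstream of an inner 5' end, had 119.5 (rank 1605), with 65.3 and 55.1. nhr-40 (WBGene00003630, 2594003 to 2606732), known for a role in muscle and early larval development, was also bound at an inner 5' end. The summit lay in an intron 367 bp upstream of that end, with a signal of 198 (rank 803) and 78.6 and 112 in the replicates.

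Of the remaining X genes, nhr-3 (14558504 to 14561432) had a peak of 174 (63.7 and 109.8 in the replicates) 912 bp upstream, in exon sequence of the RNA gene H01A20.2. The peak of nhr-255 (15742610 to 15744298) had a signal of 168 (67.96 and 95.7), 614 bp upstream, and lay 54 bp upstream of a transfer RNA gene and 1370 bp upstream of the chemoreceptor gene srg-64. nhr-32 (13251964 to 13256284) had 138 (52.9 and 78.8), 288 bp upstream. The lowest of the X promoter peaks was at nhr-14 (8473722 to 8476178), an HNF4-like receptor with a known role in iron uptake and immunity. The peak had a signal of 83.1 and lay 256 bp upstream, in exon sequence of the RNA gene T01B10.13. There the replicates differed in rank, with 28.5 (rank 3234) in replicate 1 and 53.1 (rank 2109) in replicate 2, so this gene was missing from the strongest peaks of replicate 1.

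On the other autosomes the strongest promoter peaks were at HNF4-like receptors of chromosome I. nhr-49 (WBGene00003639, chromosome I from 9869651 to 9874680), a regulator of fatty acid desaturation and the response to starvation, had a peak 348 bp upstream with a signal of 153 (rank 1174), and 67.4 and 80.5 in the replicates. nhr-64 (chromosome I, 3101851 to 3109621), another HNF4-like receptor, had 109 (49.8 and 59.5) 800 bp upstream. nhr-66 (chromosome IV, 8226331 to 8236602), whose product acts with NHR-49, had 98.5 (38.2 and 52.9) in an intron 886 bp upstream of an inner 5' end, in sequence that also lies in an exon of the antisense RNA gene anr-44. Of 16 receptors listed for roles in fat, diet or stress, these 3 and nhr-14 had an optimal promoter peak. That is 4 of 16, against 13.1% of all protein-coding genes, and replicate 1 gave 3. This short list was chosen with earlier results of these data known, so no excess can be read from 4 genes. nhr-80 and nhr-13, which act with NHR-49, and nhr-68 of propionate breakdown had no promoter peak even in the pooled list.

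Of 11 nhr- genes listed with a counterpart subfamily in other animals, 2 had an optimal promoter peak, nhr-48 and nhr-8. The share of all protein-coding genes was 13.1%, and both replicates gave the same count. The list is short and holds nhr- genes only. The 5 nuclear receptors with other names, such as daf-12, are counted apart below, with 0 optimal and 1 pooled. In the pooled list 9 of the 11 had a promoter peak, against 41.8% of protein-coding genes. nhr-8 (chromosome IV, 7710983 to 7714210), known for cholesterol balance and resistance to toxins, had 103 (40.1 and 55.9), but the summit lay 1089 bp upstream and was within 151 to 193 bp of the 5' ends of mrps-24, emc-6 and mrpl-1, of which mrps-24 and mrpl-1 encode mitochondrial ribosomal proteins. The other 9 had no optimal peak. In the pooled list nhr-41 had 50.7 (rank 3973) and nhr-25, the homologue of Ftz-F1 that acts in the epidermis and moulting, had 35.8 (rank 5987). nhr-85 (25.7), nhr-239 (25.4), nhr-111 (20.9), nhr-23 (19.9), a regulator of moulting, and nhr-6 (19.3), the NR4A homologue, lay under the median of that list, 26.3, and its lowest signal is 19.0. nhr-67, the tailless homologue, and nhr-91 had none.

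The remaining bound genes were nhr-88, nhr-280 and nhr-78, each on a different autosome. nhr-88 (chromosome II, 2976639 to 2987023) had a peak of 97.1 (52.1 and 47.0 in the replicates) in an intron just inside the gene, the only one of the 18 promoter peaks with its summit downstream of the 5' end. nhr-280 (chromosome III, 130146 to 130750) had 78.5, 1093 bp upstream, and the summit was closer to pals-22, at 575 bp. Its rank was 3623 in replicate 1 (signal 26.0) and 2662 in replicate 2 (42.5), so it too was missing from the strongest peaks of replicate 1. nhr-78 (chromosome IV, 4274341 to 4277875) had 72.0 (rank 2754) 34 bp upstream, with 31.2 and 42.0, and was the member nearest above the limit of the optimal list, whose lowest signal is 66.4.

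**Figure D2:**
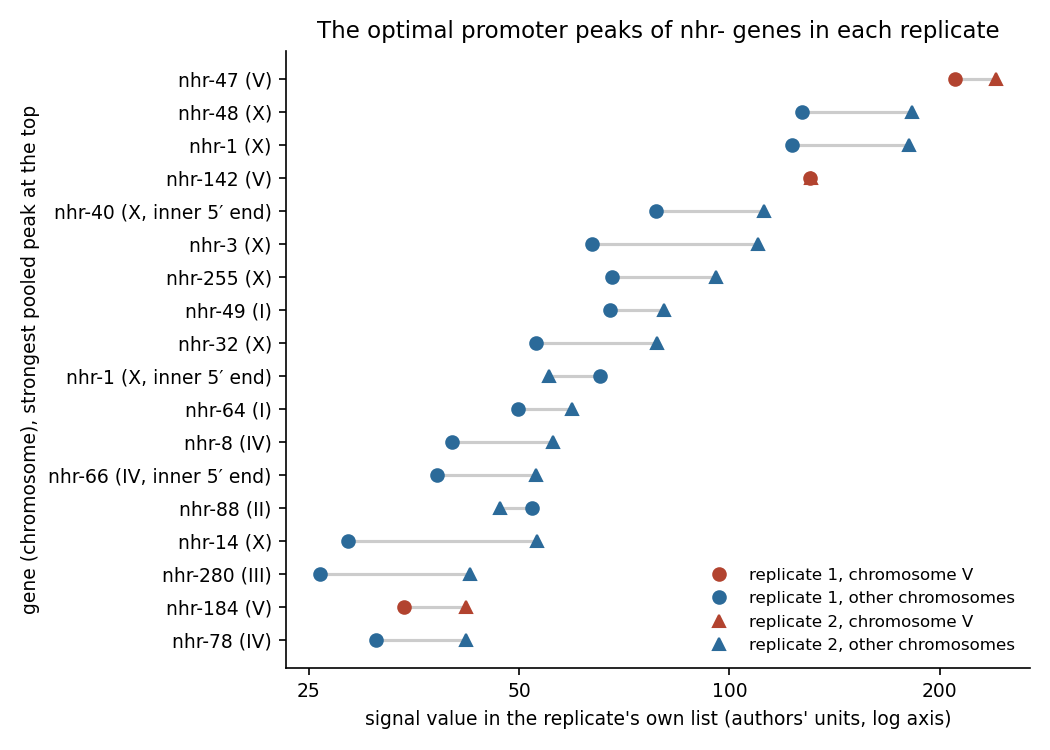
Signal of the 18 optimal promoter peaks of nhr- genes in the list of replicate 1 (circles) and of replicate 2 (triangles), on a log axis in the authors' units, with genes on chromosome V in red and others in blue. The signals of the 2 lists are not on a common scale; the peak of nhr-47 is the highest in both lists (210.0 and 241) and that of nhr-280 is the lowest in replicate 1 (26.0).

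As a group, the 18 peaks at 17 genes were ordinary members of the optimal list. Their signals ran from 72.0 to 456 with a median of 129, and 9 of the 18 were above the median of all optimal peaks, 127. Both relaxed lists held all 18, which replicate 1 placed among its strongest 2987 in 16 cases and replicate 2 in 18. Summits lay upstream of the 5' end in 17 of 18 cases, at a median of 452 bp for these 17, and 3 of the 18 lay at an inner 5' end. Another protein-coding gene shared the peak in 6 of 18 cases (33.3%), against 38.3% of the 1941 optimal summits in a coding promoter window. In 15 of 18 cases the receptor gene had the nearest protein-coding 5' end, the exceptions being nhr-142, nhr-8 and nhr-280. With each summit given to its nearest gene only, 2 of 167 receptor genes on chromosome V and 12 of 102 on the others were left.

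The sequence bound by UNC-86 together with MEC-3, AATGCAT, was found in the 151 bp centred on the summit at 3 of the 18 peaks, those of nhr-1, nhr-40 and nhr-88. That is 16.7% (exact 95% interval 3.58 to 41.4), against 3.05% of all optimal summits, 2.94% of optimal summits at coding promoters and 1.98% of windows of the same length ending at the first 5' end of each protein-coding gene, searching both strands. At the first 5' end of nhr-1 there were 2 separate sites, starting 16 and 30 bp downstream of the summit. Only 2 of 2987 optimal summits had 2 such sites. The site of nhr-40 started 33 bp downstream of the summit and reads AATGCATT, which matches on both strands and was counted as 1 site. That of nhr-88 started 3 bp upstream of its summit. Within 30 bp of the summit the element occurred at 2 of 18 (11.1%, 1.38 to 34.7), against 1.24% of all optimal summits. Within 150 bp it occurred at 3 of 18 (16.7%, 3.58 to 41.4), against 6.06%. The interval thus included the share of all optimal summits in the widest window, unlike in the narrower ones. These shares rest on 3 peaks at most, and a match of letters does not show which base is bound. The 151 bp around these summits are shown because they hold the element, with AATGCAT (or ATGCATT) and GAGAGA (or TCTCTC) in capitals, 5' to 3' on the plus strand, which is the strand of all 3 genes. The regions are chrX:17513667-17513817 for nhr-1, chrX:2598966-2599116 for nhr-40 and chrII:2976799-2976949 for nhr-88.
nhr-1: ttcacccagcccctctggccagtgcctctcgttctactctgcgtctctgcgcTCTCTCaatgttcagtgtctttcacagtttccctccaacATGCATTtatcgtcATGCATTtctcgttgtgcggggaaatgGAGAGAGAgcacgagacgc
nhr-40: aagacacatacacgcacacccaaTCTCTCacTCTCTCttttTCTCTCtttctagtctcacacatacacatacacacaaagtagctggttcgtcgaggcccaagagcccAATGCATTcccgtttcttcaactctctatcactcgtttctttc
nhr-88: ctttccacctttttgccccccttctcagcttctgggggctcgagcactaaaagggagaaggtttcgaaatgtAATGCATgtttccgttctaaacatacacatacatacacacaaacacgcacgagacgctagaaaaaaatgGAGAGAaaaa
All 3 windows also held GAGAGA, which occurred at 9 of the 18 member summits (50%, 26.0 to 74.0), against 36.3% of all optimal summits and 12.8% of promoter windows of that length. Within 30 bp of the summit it occurred at 4 of 18 (22.2%, 6.41 to 47.6), against 17.1% of all optimal summits. In either window the interval included the share of all optimal summits. No GAGAGA match overlapped an AATGCAT match in these windows. The POU octamer ATGCAAAT was at none of the 18, which allows a share of up to 18.5%, against 1.24% of optimal summits. The homeodomain core TAATTA was at 1 of 18, that of nhr-64, against 4.52% of optimal summits. The summit windows had a median of 46.7% G and C bases (29.8 to 53.0), against 45.03% at all coding promoter summits.

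Below the limit of the optimal list, the difference between chromosome V and the rest narrowed. The pooled list, which includes background, had a summit in the promoter window of 53 of 167 receptor genes on chromosome V (31.7%, 24.8 to 39.4), against 35 of 102 on the other chromosomes (34.3%, 25.2 to 44.4). For all protein-coding genes the shares were 33.4% on chromosome V and 44.6% on the other chromosomes. Of all 269 receptor genes 88 had a pooled summit (32.7%), against 41.8% of protein-coding genes, and 181 had none. On the X these were 12 of 23 (52.2%), against 43.1% of protein-coding genes, and on chromosomes I to IV 23 of 79 (29.1%), against 44.9%. The relaxed lists of the single replicates gave 38.02% ± 6.35 on chromosome V and 46.6% ± 10.4 elsewhere (SD, n = 2). The replicates' lists differ in length, which moves both shares. Within replicate 1 the shares were 42.5% on chromosome V and 53.9% elsewhere, and within replicate 2 they were 33.5% and 39.2%, so chromosome V was lower in both. All protein-coding genes gave 42.3% ± 6.30 on chromosome V and 52.8% ± 4.09 elsewhere in the same lists.

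The difference between chromosome V and the rest, in percentage points, did not shrink steadily as weaker peaks were added. Below the limit of the optimal list it was smallest with the whole pooled list. The shares of receptor genes were 4.79% on chromosome V and 16.7% elsewhere with the 5000 strongest pooled peaks, and 13.2% and 21.6% with the 10000 strongest. For all protein-coding genes they were 11.7% and 20.3% with 5000 peaks, and 18.4% and 29.0% with 10000. With the 15000 strongest pooled peaks 17.4% of the receptor genes on chromosome V had a promoter summit, against 28.4% of those elsewhere, and among all protein-coding genes 24.9% did on chromosome V and 36.8% elsewhere. The remaining, weaker peaks brought chromosome V to 31.7% and the others to 34.3%. Of receptor genes with any pooled promoter summit, 3 of 53 on chromosome V (5.66%) and 14 of 35 elsewhere (40.0%) had one in the optimal list, against 25.3% and 32.8% of all protein-coding genes with a pooled promoter summit. The strongest pooled signal per gene had a median of 23.5 in the receptor genes on chromosome V and 35.8 in those elsewhere, against 28.6 in all protein-coding genes of chromosome V. These medians cover genes with a pooled peak only.

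**Figure D3:**
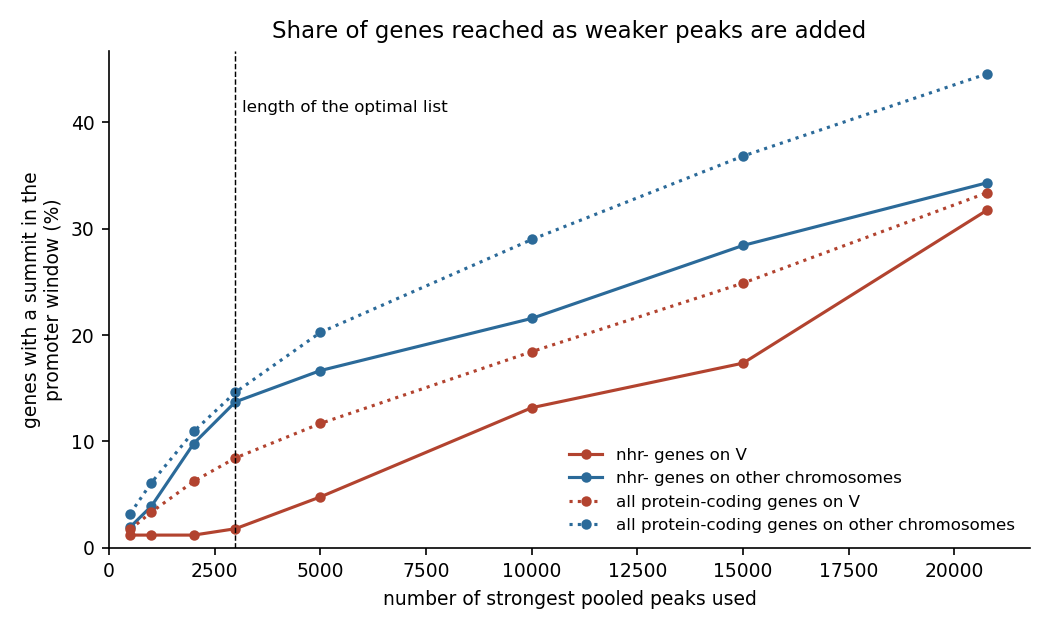
Share of genes, in percent, with a summit in the promoter window (vertical axis) as more of the strongest pooled peaks are used (horizontal axis), for nhr- genes (solid lines) and all protein-coding genes (dotted lines) on chromosome V (red) and on the other chromosomes (blue). The solid red line stays at or under 1.80% up to the length of the optimal list and reaches 31.7% with all peaks.

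No receptor gene lay just under the limit. The strongest of the 71 members with a pooled but no optimal promoter peak was nhr-10 of propionate breakdown, at 55.1 (rank 3642) and 1432 bp upstream, so no member fell between this signal and the 72.0 of nhr-78. Of the 10 strongest of these, 7 lay on chromosome V, close to the share among all 71, of which 50 lay there. nhr-15 had 52.9 there, with the replicates far apart at 41.7 (rank 2067) in replicate 1 and 16.2 (rank 8981) in replicate 2. nhr-55 had 47.5, with 35.5 (rank 2507) in replicate 1 and 10.5 (rank 21595) in replicate 2. nhr-50 (46.3), nhr-253 (45.4), nhr-112 (44.3), nhr-117 (39.9) and nhr-59 (38.1) ranked from 3804 to 11690 in the replicates. The remaining members of these 10 were nhr-41 on chromosome IV, given above, and nhr-17 on the X (42.8).

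**Figure D4:**
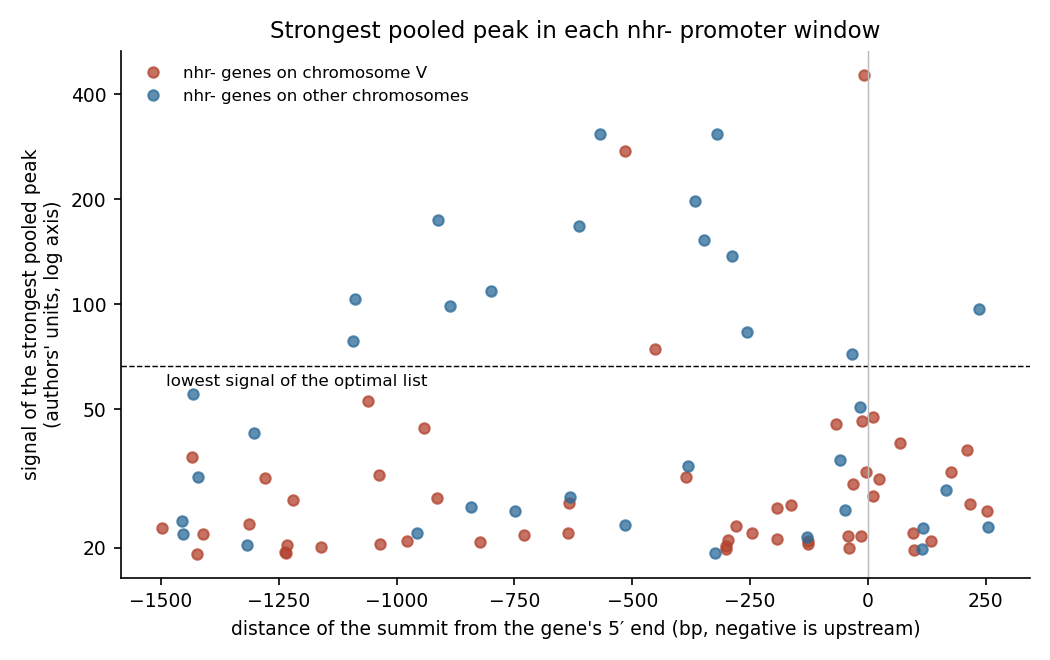
Signal of the strongest pooled peak in the promoter window of each of the 88 nhr- genes that have one (log axis, authors' units) against the distance of its summit from the 5' end in bp, for genes on chromosome V (red) and on other chromosomes (blue). Above the dashed line, the lowest signal of the optimal list (66.4), lie 3 red and 14 blue points.

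Most bound receptor genes stood alone. Of the 17, 15 had no other nhr- gene within 10 kb. The distance of 10 kb used here was set after the data were seen. On chromosome V, 1 of 122 genes with another nhr- gene within 10 kb (0.820%) and 2 of 45 without (4.44%) had an optimal promoter peak. On the other chromosomes the counts were 1 of 37 (2.70%) and 13 of 65 (20%), and these 13 include all 7 bound genes of the X. Among all protein-coding genes the shares were 8.45% on chromosome V and 14.6% elsewhere. With the optimal list, receptor genes on chromosome V had the lower share in both classes, but the clustered class held 1 bound gene on each side. The part of clustering was not tested. The replicates gave 2 and 1 of 122, 3 and 2 of 45, 1 and 1 of 37, and 11 and 13 of 65. With 5 kb or 20 kb the solitary genes of the other chromosomes gave 18.1% and 22.8%, and those of chromosome V 3.64% and 5.13%. The clustered genes with an optimal peak were nhr-184, with another receptor gene 753 bp away, and nhr-49, at 4503 bp. In the pooled list the clustered class went the other way at 10 kb. It gave 36 of 122 on chromosome V (29.5%) and 4 of 37 elsewhere (10.8%). The solitary genes gave 17 of 45 (37.8%) and 31 of 65 (47.7%). Among all protein-coding genes the pooled shares were 33.4% on chromosome V and 44.6% elsewhere.

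**Figure D5:**
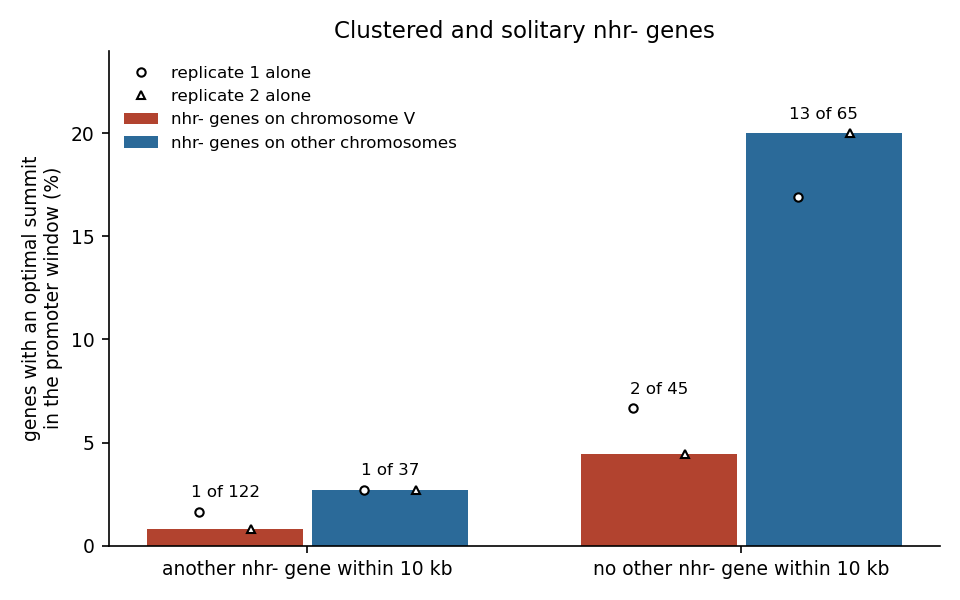
Share of nhr- genes, in percent, with an optimal summit in the promoter window, split by whether another nhr- gene lies within 10 kb, for chromosome V (red) and the other chromosomes (blue). Numbers above the bars are the optimal counts and circles and triangles are the shares from replicates 1 and 2 alone. Solitary genes of the other chromosomes stand at 20% and the other classes at 0.820% to 4.44%.

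The space upstream of the genes differed as well. The distance from the first 5' end to the next protein-coding gene had a median of 1032 bp for receptor genes on chromosome V and 3422.5 bp for those elsewhere, against 946.5 bp and 932 bp for all protein-coding genes. With genes split at 491 and 1850 bp, which gives 3 classes of nearly equal size over all protein-coding genes, receptor genes on chromosome V had an optimal promoter peak in 1 of 46, 2 of 68 and 0 of 53 cases with rising distance. On the other chromosomes the counts were 2 of 9, 2 of 23 and 10 of 70. For all protein-coding genes the shares were 13.0%, 6.99% and 5.92% on chromosome V and 17.5%, 15.5% and 10.9% elsewhere. In the class of the longest distances, receptor genes thus stood at 0% (up to 6.72%) on chromosome V and at 14.3% (7.07 to 24.7) elsewhere. The 10 bound genes of that class elsewhere include all 7 bound genes of the X.

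Summits inside the genes were found outside chromosome V only, for the receptor genes and the optimal list. A summit of the optimal list lay between the ends of 0 of 167 receptor genes on chromosome V and of 9 of 102 on the others (8.82%), against 1.80% and 4.00% of all protein-coding genes. Over all chromosomes this was 3.35% of receptor genes and 3.45% of protein-coding genes. At a share of 1.80% few of 167 genes would be counted. No interval was computed for these counts, so no lack at receptor genes of chromosome V can be read from the 0. Of the 9 genes 5 lie on the X. Receptor genes had a median length of 2146 bp on chromosome V and 3143.5 bp elsewhere, and the part of length in these counts was not tested. All 11 such summits were in introns. Of these, 4 are promoter peaks counted above (nhr-1, nhr-40, nhr-66 and nhr-88), and 5 lay outside every coding promoter window. Of these 5, nhr-3 had 216 (79.6 and 141 in the replicates) 1913 bp into the gene, nhr-19 on chromosome II had 216 (88.7 and 134), nhr-46 on chromosome IV had 168 (67.8 and 111.2), and nhr-40 had 74.2 and 73.6 besides the peak at its inner 5' end. The peak in nhr-3 was stronger than the one upstream of it. Summits inside nhr-17 (134) and nhr-27 (93.1) lay in the promoter windows of nlp-76 and rgs-2.

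Among the listed genes that work with the receptors, optimal promoter peaks were found at cofactor and Mediator genes only. Of 6 cofactor and Mediator genes, 3 had an optimal promoter peak, against 13.1% of all protein-coding genes, and both replicates gave 3. The list is short and was chosen with earlier results of these data known, so no excess can be read from this count. The peak of cbp-1, which encodes the CBP/p300 acetyltransferase, had a signal of 764 (rank 40, with 315 and 445 in the replicates), 887 bp upstream. din-1, a corepressor of DAF-12, had 253 (122 and 126), and sop-3, a Mediator subunit, had 156 (62.1 and 92.6). dpy-22 and let-19 had pooled peaks only, and mdt-15, the Mediator subunit that works with NHR-49, had none. None of the 5 nuclear receptors with other names (daf-12, fax-1, odr-7, sex-1 and unc-55), 7 genes of steroid ligand synthesis and sterol transport, 8 known targets of NHR-49 or 9 moulting genes had an optimal promoter peak, which allows shares of up to 52.2%, 40.96%, 36.9% and 33.6%. In the pooled list 1 of 5, 2 of 7, 1 of 8 and 1 of 9 had a peak, against 41.8% of protein-coding genes.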

How the data were processed

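Peak lists from 2 replicates of 1 group were used. The relaxed lists are described in the deposited file names as peaks and background for IDR, and the optimal list as IDR thresholded. The listings deposited with the samples derive each replicate's list from 1 alignment and the pooled list from both. No aligner, peak caller or threshold is stated in the labels. The signal of each peak is the authors' value as deposited, and was used only to describe and rank peaks within a list. Lists on ce11 were set against WBcel235 with the Ensembl annotation of release 115. No optimal peak ended beyond a chromosome. Of the ce10 lists only the number of optimal peaks (3637) was used.

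Summits were assigned with Python 3.11.15, pandas 2.3.3, numpy 2.4.6 and scipy 1.17.1, and the assignment was tested on simulated peaks. Intervals are exact (Clopper-Pearson) 95% intervals. The members and gene lists were chosen with earlier results of these data known, and no set test was run. Chromosome X, the parts of chromosome V, the classes of spacing and the 10 kb distance were set after values were seen. Genome sequence is RefSeq's WBcel235. Named genes are all members with an optimal promoter peak and all listed nhr- genes with counterparts in other animals. Other listed genes with such a peak and the 10 strongest members below the limit are named too. Genes named besides these were chosen after their values were seen.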

Additional observations from a re-analysis of the deposited data

How the results depend on the processing

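Alternatives changed the promoter window, the assignment of peaks, the 5' ends, the signal limit, the list length or the replicate. Over 9 alternatives to the optimal list, 9 to 20 receptor genes had a promoter peak, 2 to 5 on chromosome V, 7 to 16 on the other chromosomes and 6 to 8 on the X. In all 9 the share on chromosome V was below that elsewhere and below that of all protein-coding genes of chromosome V, and the share on the X was above that of the X. With signals above the median, 9 genes remained in all and 7 outside chromosome V. Of these 7, 6 lay on the X and the other was nhr-49 on chromosome I. The higher share outside chromosome V thus rested on the X at this limit. Leaving out a replicate gave 3 to 5 genes on chromosome V, with 5 from replicate 1 alone (nhr-15 and nhr-55 added). With the nearest 5' end only, receptor genes outside chromosome V (11.8%) were above all protein-coding genes there (10.2%). In the pooled list, leaving out a replicate gave 40 to 55 genes outside chromosome V. There, the share on chromosome V was below that elsewhere in 6 of 7 alternatives, the exception being the most upstream 5' end (28.1% against 27.5%). It was below that of all protein-coding genes of chromosome V in 6 of 7, the exception being the nearest 5' end (28.7% against 27.8%). The X share was above that of all genes of the X in 6 of 7, the exception being replicate 2 alone (47.8% against 48.9%). GAGAGA lay within 30 bp of 22.2% of member summits, against 17.1% of all optimal summits. AATGCAT lay within 30 bp of 11.1%, against 1.24%, and within 150 bp of 16.7%, against 6.06%. The causes were not tested. The settings for the X and for the 5 kb and 20 kb distances were chosen after seeing the data. No paired analysis was possible because the samples form 1 group. Depth is unknown, and a peak absent from a list is not shown to be absent from the genome.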

Other observations

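Receptor genes with several annotated 5' ends had promoter peaks more often than those with 1, as did protein-coding genes in general. On chromosome V an optimal promoter peak was found at 2 of 62 receptor genes with 2 or more 5' ends (3.23%) and at 1 of 105 with 1 (0.952%). On the other chromosomes it was found at 9 of 40 (22.5%) and 5 of 62 (8.06%). All protein-coding genes gave 14.3% and 6.56% on chromosome V and 21.5% and 11.9% elsewhere, so receptor genes on chromosome V were lower in both classes. A gene with more 5' ends has more promoter sequence in which a summit is counted, and its part in these counts was not tested.

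Pooled summits of receptor genes lay close to the 5' end more often on chromosome V than elsewhere, in counts that were not tested. Of 53 receptor genes there with a pooled promoter peak, the strongest lay within 250 bp of the 5' end in 24 (45.3%), against 9 of 35 elsewhere (25.7%). For all protein-coding genes the shares were 37.6% on chromosome V and 38.2% elsewhere. The 53 and the 35 include the 3 and 14 genes with an optimal peak. The pooled list includes background, and no peak in it below the optimal limit is known to be a binding site.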
